A study of Mus with 18 samples.

Results

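The colony-stimulating factors and their receptors are 8 genes, 3 ligands and 5 receptor subunits, taken by their symbols from deposited tables that list 21401 gene symbols each. They were Csf1, Csf2 and Csf3 among the ligands, and Csf1r, Csf2ra, Csf2rb, Csf2rb2 and Csf3r among the receptors. All 8 symbols were found in the cell and in the muscle table. The family was selected on the measured values of LPS against control in the cell libraries, where Csf3 showed the largest increase. All comparisons of LPS with control in cells, and all comparisons of Csf3 in cells, are therefore given as descriptions without a test.

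RNA-seq was available for 18 libraries, 9 labelled as the mouse myoblast line C2C12 and 9 from gastrocnemius muscle of wild type C57BL/6 male mice. Each group had 3 libraries. LPS (lipopolysaccharide) is a bacterial cell wall component that triggers innate immunity, and MIC-1 (moringa isothiocyanate-1) is an isothiocyanate from Moringa oleifera seeds that the study tested as an anti-inflammatory compound. In the cell experiment, control samples received vehicle, LPS samples received 1 μg/mL LPS, and LPS-MIC-1 samples received the same LPS with MIC-1, which the labels give as 10 μM for 24 h. The study's text gives a lower MIC-1 concentration and an ethanol vehicle, whereas the labels name saline. In mice, control animals received vehicle, LPS animals an intraperitoneal injection of 10 mg/kg LPS, and LPS-MIC-1 animals oral MIC-1 at 80 mg/kg in DMSO on 3 days before the same LPS injection, with muscles taken 16 h after LPS. The labels name C2C12 for all cell libraries, and nothing in the sources says whether their replicates came from separate cultures. The p-values from cells therefore measure only the spread between these samples, which may be technical.

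Colony-stimulating factors are secreted cytokines that keep myeloid cells alive and drive their growth and maturation. CSF1 acts on macrophages through the receptor tyrosine kinase CSF1R, CSF2 (GM-CSF) acts through an alpha subunit and a shared beta subunit, and CSF3 (G-CSF) acts on neutrophils through CSF3R. The receptors are found mainly on myeloid cells, whereas fibroblasts, endothelial cells, muscle cells and activated macrophages can make the ligands.

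Levels are in FPKM, which scale fragments to transcript length and to the size of the library, a scale that is per length and can be compared between genes. The reads per library are not given in the sources used here. The authors' mean normalized counts summed to between 13873466 and 18734426 per comparison. Marker genes went against the cell line named for 6 of the 9 cell libraries. The summed level of 16 macrophage markers was 8132 to 8186 FPKM in the libraries labelled control and 6589 to 6791 FPKM in those labelled LPS, but 88.6 to 269 FPKM in those labelled LPS-MIC-1. Aif1, C1qa and C1qc were listed at 0 in LPS-MIC-1, but had means of at most 2.70 FPKM in the other groups. Cd163 went the other way, with means of 0.0311, 0.0233 and 0.662 FPKM in control, LPS and LPS-MIC-1. The summed level of 10 myogenic markers was at most 0.379 FPKM in control and 2.08 FPKM in LPS, and 754 to 974 FPKM in LPS-MIC-1. Myod1, the myoblast master regulator, had a mean of 0.00976 FPKM in control, 0.0118 FPKM in LPS and 53.9 ± 3.88 FPKM (SD, n = 3) in LPS-MIC-1. The cell groups are therefore named by their labels, and each cell comparison is one between libraries with those labels. Their difference in cell type markers and the treatment cannot be told apart in these data.

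In the libraries labelled control, the family consisted almost wholly of receptors. Csf1r was the highest member with a mean of 724 FPKM, followed by Csf2ra at 71.7 FPKM, Csf2rb at 16.3 FPKM, Csf3r at 4.24 FPKM and Csf2rb2 at 2.29 FPKM, and no neighbours in this order overlapped. The 3 ligands had means of 0.501 FPKM or less, and their ranges overlapped. In the libraries labelled LPS, the order was led by Csf3 at 2581 FPKM, with Csf1r second at 177 FPKM. The ranges of Csf2 and Csf3r overlapped there. In the libraries labelled LPS-MIC-1, Csf1 led at 116 FPKM, and the next 7 members, from Csf3 at 22.5 FPKM down to Csf3r at 0, overlapped each with the next.

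**Figure D1:**
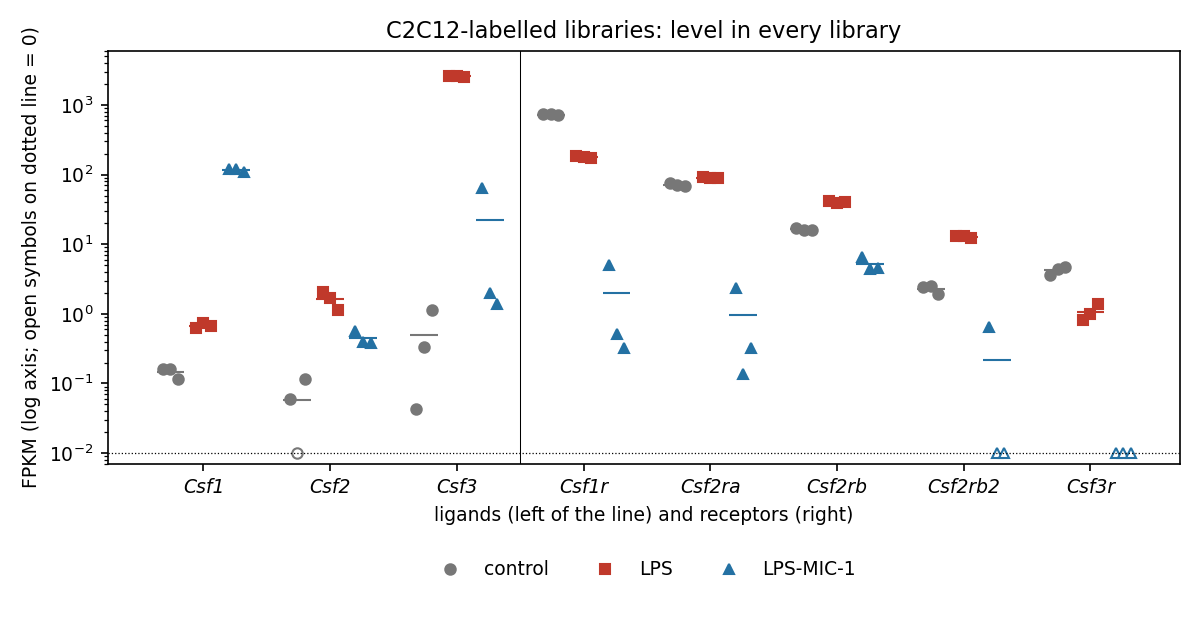
Level of each of the 8 genes in the 9 C2C12-labelled libraries, in FPKM on a log axis, with 3 points per group and a line at the group mean; open symbols on the dotted line are listed at 0. Csf3 stands at 2492 to 2641 FPKM in the LPS libraries, Csf1 at 108 to 121 FPKM in the LPS-MIC-1 libraries, and Csf1r at 705 to 734 FPKM in the control libraries.

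Csf3, the neutrophil growth factor, had 0.0426, 0.337 and 1.12 FPKM in control replicates 1, 2 and 3. In the LPS replicates it had 2611, 2641 and 2492 FPKM. In the LPS-MIC-1 replicates it had 64.2, 2.01 and 1.37 FPKM. LPS libraries were far above all others, and the groups did not overlap, although 1 LPS-MIC-1 library was well above the other two. The mean in LPS was 5155-fold that in control on the FPKM scale, and the log2 difference of 12.57 in FPKM + 0.1 was the largest among 10877 tested genes. The control values correspond to about 1, 7 and 22 normalized reads. Relative to the LPS mean, the LPS-MIC-1 libraries held 2.49%, 0.0779% and 0.0530% of the Csf3 level.

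Csf1, the macrophage growth factor, followed another order. It had 0.162, 0.160 and 0.114 FPKM in control, 0.620, 0.747 and 0.660 FPKM in LPS, and 119, 121 and 108 FPKM in LPS-MIC-1. The LPS-MIC-1 libraries were far above the rest, and control and LPS did not overlap either. LPS was 4.65-fold control by the means, as a description. The mean in LPS-MIC-1 was 171-fold that in LPS on the FPKM scale, and the log2 difference of FPKM + 0.1 was 7.22 from LPS and 8.89 from control. Genes were tested only where their mean over the 9 libraries exceeded 1 FPKM, and Csf1 passed this filter only through LPS-MIC-1, since the mean of the other groups was 0.410 FPKM. Its differences are therefore descriptions, with no test.

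Csf2, which activates macrophages and granulocytes, stayed near the limit of detection. It had 0.0594, 0 and 0.116 FPKM in control, 2.03, 1.70 and 1.13 FPKM in LPS, and 0.575, 0.399 and 0.380 FPKM in LPS-MIC-1. The groups did not overlap, with LPS highest and control lowest. The control values correspond to at most 2 normalized reads, the LPS values to between 16 and 29, and the LPS-MIC-1 values to between 5 and 8. Csf2 did not reach a mean of 1 FPKM and was not tested across genes. The exact two-sided permutation test of LPS-MIC-1 against LPS gave p = 0.1, the smallest value that 3 against 3 libraries allow. Any such groups without overlap give it.

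Csf1r, the CSF1 receptor and a macrophage hallmark, had 733, 734 and 705 FPKM in control. It had 184, 176 and 172 FPKM in LPS and 5.07, 0.505 and 0.320 FPKM in LPS-MIC-1. Each group lay below the one before it without overlap, and replicate 1 of LPS-MIC-1 was the highest of its group. By the means, control was 4.08-fold LPS. The log2 difference of LPS-MIC-1 was -7.34 from LPS (standard error 0.809, limma adjusted p = 4.20e-05) and -9.37 from control (limma adjusted p = 1.02e-05).

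Csf2ra, the subunit that gives the GM-CSF receptor its ligand specificity, had 74.7, 70.8 and 69.5 FPKM in control, 92.1, 89.5 and 90.0 FPKM in LPS, and 2.38, 0.136 and 0.323 FPKM in LPS-MIC-1. LPS was slightly above control without overlap, and LPS-MIC-1 was far below both. The log2 difference of LPS-MIC-1 from LPS was -7.17 (standard error 0.732, limma adjusted p = 2.57e-05), and that from control was -6.84 (limma adjusted p = 3.99e-05).

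Csf2rb and Csf2rb2 encode the signalling beta subunits. The product of Csf2rb serves the receptors for GM-CSF, IL-3 and IL-5, while that of Csf2rb2 serves the IL-3 receptor in the mouse. They are near-identical copies that lie next to each other, so the division of reads between them by pseudoalignment is uncertain. Csf2rb had 16.9, 16.2 and 15.7 FPKM in control, 41.9, 39.4 and 40.4 FPKM in LPS, and 6.56, 4.35 and 4.51 FPKM in LPS-MIC-1. Its 3 groups were apart, and unlike the other receptors it kept a clear level in all LPS-MIC-1 libraries, at 16.2%, 10.7% and 11.1% of the LPS mean. Csf2rb fell by 2.98 on the log2 scale from LPS to LPS-MIC-1 (standard error 0.142, limma adjusted p = 2.34e-07) and its difference from control was -1.67 (limma adjusted p = 9.45e-06).

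Csf2rb2 had 2.39, 2.51 and 1.96 FPKM in control and 13.1, 13.0 and 12.2 FPKM in LPS. In LPS-MIC-1 it had 0.656 FPKM in replicate 1 and was listed at 0 in replicates 2 and 3. LPS libraries were thus the highest and LPS-MIC-1 libraries the lowest, without overlap. Csf2rb2 fell by 6.04 from LPS to LPS-MIC-1 on the log2 scale (standard error 0.707, limma adjusted p = 6.16e-05). Against control its log2 difference of -3.60 did not pass the threshold of 0.001 (limma adjusted p = 0.00161), but did without LPS-MIC-1 replicate 1 (-4.57, limma adjusted p = 8.34e-08). Of the summed beta subunit level, Csf2rb2 made up 12.3% ± 1.17 in control and 24.0% ± 0.738 in LPS (SD, n = 3).

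**Figure D2:**
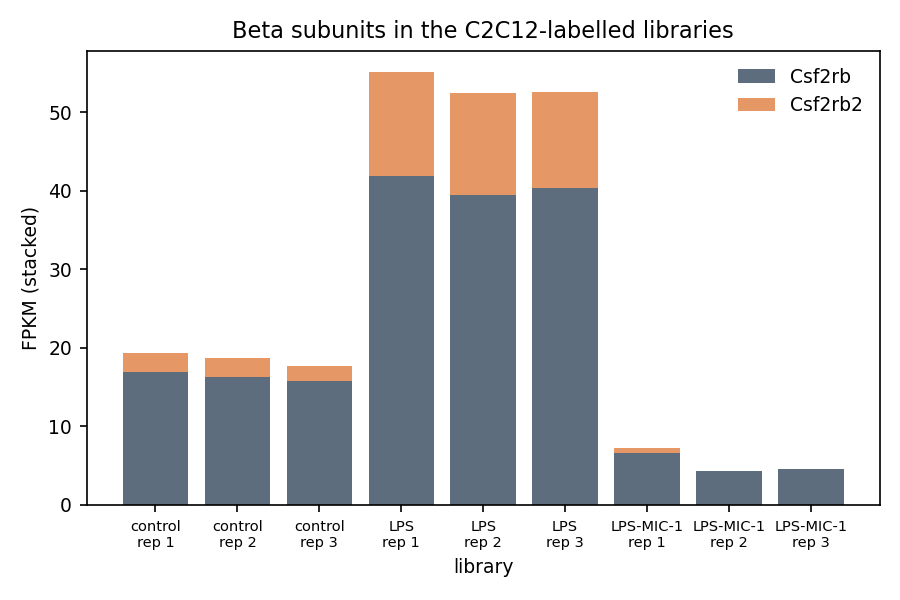
FPKM of Csf2rb and Csf2rb2 stacked for each of the 9 C2C12-labelled libraries. The summed level is 17.7 to 19.3 FPKM in control and 52.4 to 55.0 FPKM in LPS, and Csf2rb2 is visible in LPS-MIC-1 only in replicate 1.

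Csf3r, the G-CSF receptor of neutrophils, had 3.61, 4.42 and 4.69 FPKM in control and 0.810, 0.986 and 1.37 FPKM in LPS, and was listed at 0 in all LPS-MIC-1 libraries. Each group was below the one before it without overlap, and no fold is given against a group listed at 0. Csf3r passed the filter only through its control level, since the other groups had a mean of 0.528 FPKM, so its differences are descriptions with no test. In control, 11 neutrophil markers summed to 1.46 to 1.69 FPKM, and 7 of them were listed at 0. Their sum was 41.7 to 45.1 FPKM in LPS and 7.29 to 10.3 FPKM in LPS-MIC-1, with 4 listed at 0 in each. In LPS, Mmp9 had a mean of 30.7 FPKM and S100a8 one of 10.8 FPKM.

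Between the libraries labelled LPS and control, the 3 replicates of each group did not overlap for any of the 8 genes, with 6 higher and 2, Csf1r and Csf3r, lower in LPS. Among all tested genes, 39.4% were higher and 40.1% lower without overlap, and nothing is read from the count because the family was chosen in this comparison. From LPS to LPS-MIC-1, none of the 8 genes overlapped, with 1 higher and 7 lower, beside 41.8% and 43.7% of all genes tested. Nothing is read from this count either. It holds Csf3, chosen for its rise in these LPS libraries, and Csf1 and Csf3r, which passed the filter through 1 group alone. Csf2 was not among the genes tested. Genes were called at an absolute log2 difference over 1 and an adjusted p under 0.001, which 49.9% of all genes tested passed. Calls were counted only for genes whose mean also exceeded 1 FPKM without their highest group, which leaves out Csf1 and Csf3r. A gene that passed the filter through 1 group alone had to be higher in that group than in the others. For Csf3r that group was control, which is not part of LPS-MIC-1 against LPS. All 4 members counted, the receptors Csf1r, Csf2ra, Csf2rb and Csf2rb2, were called lower in LPS-MIC-1 against LPS, beside 27.0% of the 9535 genes counted in the same way called lower and 18.2% called higher. Against control, 3 of the 4 were called, all lower, beside 23.9% of the genes counted lower and 14.5% higher, and 43.3% of all genes tested in either direction. In that comparison 3 genes were higher and 5 lower without overlap, beside 40.3% and 42.7% of all genes tested. That count also holds Csf3, Csf1 and Csf3r, and nothing is read from it.

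**Figure D3:**
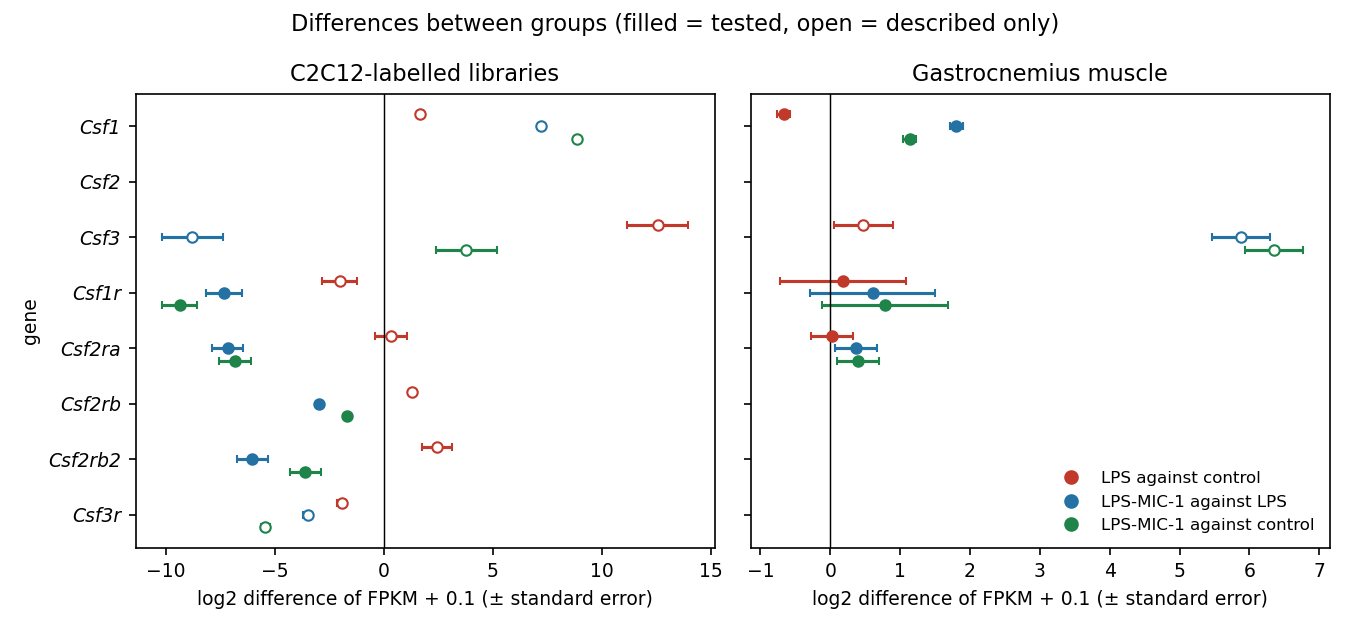
Log2 difference of FPKM + 0.1 between groups for each gene, with its standard error, in the C2C12-labelled libraries (left) and in muscle (right); filled points were tested and open points are descriptions. In cells, Csf1 lies at 7.22 and the tested receptors between -7.34 and -2.98 for LPS-MIC-1 against LPS, whereas in muscle Csf3 lies at 5.88 and Csf1 at 1.80 for the same comparison.

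Replicate 1 of the LPS-MIC-1 cell libraries stood apart in the members that were high in LPS and in macrophage markers alike. It held 2.49% of the LPS mean for Csf3, 2.86% for Csf1r, 2.63% for Csf2ra and 5.14% for Csf2rb2. Among 10 macrophage markers over 10 FPKM in LPS, its median was 3.10% of the LPS mean, with a range of 2.49% to 6.66%. The same median was 0.111% in replicate 2, with a range of 0 to 3.62%, and 0.0507% in replicate 3, with a range of 0 to 4.33%. These ranges run over different genes and overlap that of replicate 1. For each of the 10 markers taken alone, replicate 1 was the highest LPS-MIC-1 library. Without replicate 1, the log2 difference from LPS was -8.46 for Csf1r, -8.17 for Csf2ra and -7.01 for Csf2rb2, each larger in size than with it. The Csf2rb2 value depends on the added 0.1, since replicates 2 and 3 were listed at 0. The log2 difference of Csf1 from LPS was 7.21 without replicate 1, and the part of the macrophage markers in these values was not tested.

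**Figure D4:**
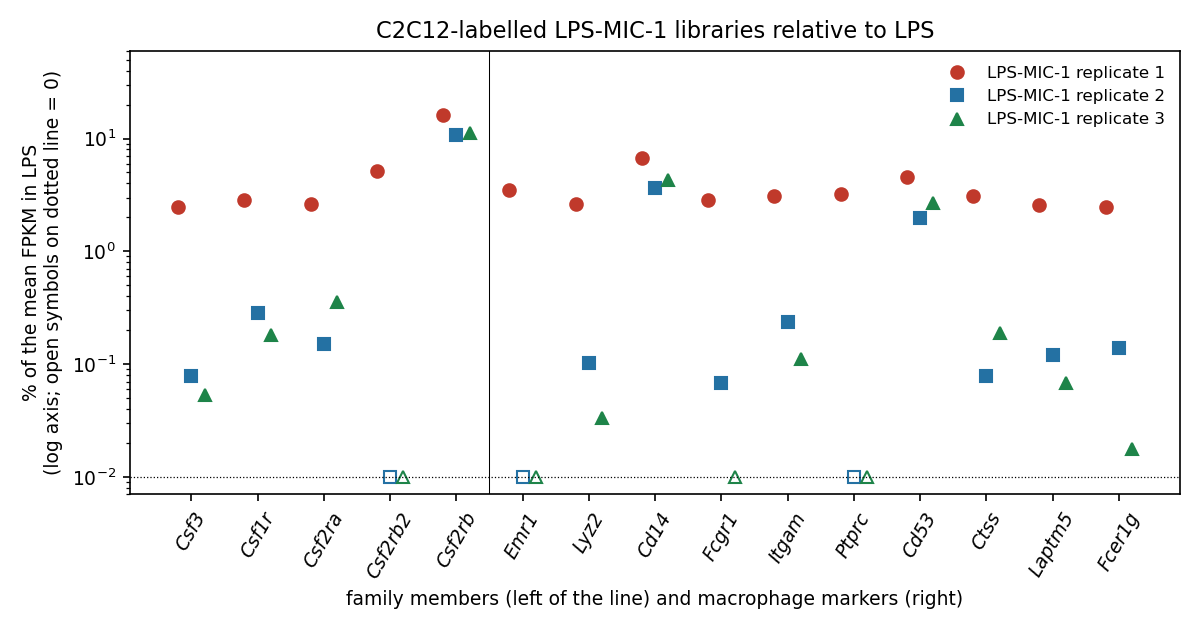
Level of 5 family members and 10 macrophage markers in each LPS-MIC-1 cell library as a percentage of the mean in LPS, on a log axis; open symbols on the dotted line are 0. Replicate 1 lies at 2.49% to 5.14% for Csf3, Csf1r, Csf2ra and Csf2rb2 and at 2.49% to 6.66% for the markers, while Csf2rb lies over 10% in all 3 libraries.

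In muscle, the family was low throughout, with no library above 12.4 FPKM for any member. Csf1, Csf3 and Csf2rb were higher in LPS-MIC-1 than in LPS and control without overlap. In bulk tissue, fewer cells of a type and less RNA per cell cannot be told apart. Csf1 was the highest member in each group, with group means of 3.77 FPKM for control, 2.34 FPKM for LPS and 8.42 FPKM for LPS-MIC-1, where its range overlapped that of Csf3. Csf1r and Csf2ra followed in control and LPS with overlapping ranges between 0.841 and 1.85 FPKM. The labelled tissue was checked with 10 muscle fibre markers, which summed to 171525 to 235010 FPKM over the 9 libraries.

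**Figure D5:**
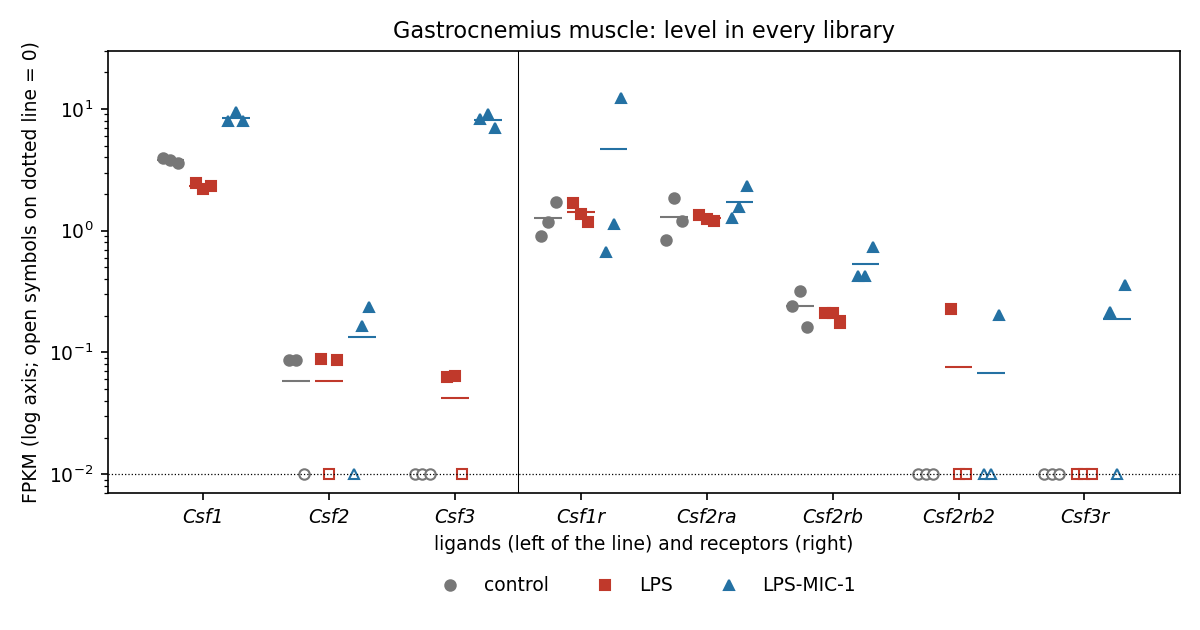
Level of each of the 8 genes in the 9 gastrocnemius libraries, in FPKM on a log axis, with 3 points per group and a line at the group mean; open symbols on the dotted line are listed at 0. Csf1 and Csf3 are highest in LPS-MIC-1, at 7.90 to 9.45 FPKM and 6.98 to 9.14 FPKM, and a single LPS-MIC-1 library has 12.4 FPKM of Csf1r.

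For Csf3 in muscle, every control library was at 0, and the LPS libraries had 0.0632, 0.0635 and 0 FPKM. In LPS-MIC-1 it had 8.27, 9.14 and 6.98 FPKM. Only LPS-MIC-1 libraries thus had more than about 1 normalized read of Csf3, and they had about 135, 150 and 114. Csf3 passed the filter only through this group, since the mean of the others was 0.0211 FPKM, and it is described without a test in muscle. The log2 difference of FPKM + 0.1 between LPS-MIC-1 and LPS was 5.88, a value that depends on the added 0.1.

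Csf1 in muscle had 3.93, 3.80 and 3.58 FPKM in control, 2.48, 2.19 and 2.34 FPKM in LPS, and 7.90, 9.45 and 7.92 FPKM in LPS-MIC-1. The 3 groups did not overlap, with LPS lowest and LPS-MIC-1 highest. Csf1 rose by 1.80 on the log2 scale from LPS to LPS-MIC-1 (standard error 0.0927, limma adjusted p = 9.69e-07), or 3.60-fold by the mean FPKM, and was the member called in that comparison. Against control it rose by 1.14 (limma adjusted p = 1.49e-05), which became 0.98 and missed the fold threshold when 1 rather than 0.1 was added to FPKM. Between LPS and control, the log2 difference was -0.67 (standard error 0.0927, limma adjusted p = 0.00224), under the fold threshold.

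Csf2 in muscle was at 0.235 FPKM or less in every library, and each group held a library listed at 0. At about 1 normalized read per 0.085 FPKM, no library held more than about 3 normalized reads of Csf2. Small differences in Csf2 could not be resolved at this depth, and no large rise was seen.

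Csf1r in muscle had 0.896, 1.17 and 1.72 FPKM in control, 1.69, 1.37 and 1.18 FPKM in LPS, and 0.666, 1.13 and 12.4 FPKM in LPS-MIC-1. The groups overlapped, and LPS-MIC-1 held both the lowest and the highest library. The log2 difference of LPS-MIC-1 from LPS was 0.60, with a 95% interval of -1.46 to 2.67 (limma adjusted p = 0.594). Without replicate 3 it was -0.62 (limma adjusted p = 0.161), so its sign rested on that library. Replicate 3 also had the highest level of its group for 12 of 16 macrophage markers, whose summed level was 173 FPKM there and 45.5 FPKM in the lowest library of the group. Lyz2 had 78.3 FPKM in replicate 3 against 5.27 and 3.93 FPKM in the others, and the part of such markers in the Csf1r value was not tested.

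Csf2ra in muscle had 0.841, 1.85 and 1.20 FPKM in control, 1.34, 1.25 and 1.20 FPKM in LPS, and 1.26, 1.55 and 2.35 FPKM in LPS-MIC-1. The groups overlapped. LPS-MIC-1 differed from LPS by 0.37 on the log2 scale, with a 95% interval of -0.32 to 1.07 (limma adjusted p = 0.321). Replicate 3 was again the highest LPS-MIC-1 library, and the difference was 0.14 without it.

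Csf2rb in muscle had 0.240, 0.318 and 0.161 FPKM in control, 0.210, 0.210 and 0.176 FPKM in LPS, and 0.425, 0.425 and 0.734 FPKM in LPS-MIC-1. All LPS-MIC-1 libraries were above the rest, 2.66-fold LPS and 2.20-fold control by the means, at about 27, 27 and 47 normalized reads against 10 to 20 in the other libraries. The exact permutation test gave p = 0.1 against either group. Csf2rb2 was detected in a single LPS library at 0.228 FPKM and a single LPS-MIC-1 library at 0.203 FPKM. Csf3r was listed at 0 in control and LPS and had 0.213, 0 and 0.355 FPKM in LPS-MIC-1. Csf2, Csf2rb, Csf2rb2 and Csf3r did not reach a mean of 1 FPKM in muscle and were not tested across genes.

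In muscle, calls were counted for 3 members, Csf1, Csf1r and Csf2ra, since Csf3 passed the filter through 1 group alone. None was called between LPS and control by limma, beside 1.25% of all genes tested. Among the 8937 genes counted in the same way, 0.526% were called higher and 0.470% lower. An unadjusted p under 0.05, in place of the adjusted p under 0.05 used there, also gave none. Csf1 passed both p thresholds but missed the fold threshold, with a log2 difference of -0.67. Of the 8 genes, Csf1 alone did not overlap there, being lower in LPS, beside 17.7% of all genes tested lower and 18.8% higher. Csf2, Csf2rb, Csf2rb2 and Csf3r were not among the genes tested, so these shares do not cover them. Between LPS-MIC-1 and LPS, 1 of the 3 was called, Csf1, which was higher, beside 15.1% of all genes tested, and 8.12% higher and 5.06% lower among the genes counted. Without overlap were 3 of the 8 genes, Csf1, Csf3 and Csf2rb, all higher, beside 32.5% of all genes tested higher and 31.7% lower. Against control, Csf1 was again called higher, beside 15.5% of all genes tested, and 7.83% higher and 5.63% lower among the genes counted. Csf1, Csf3 and Csf2rb again did not overlap, all higher, beside 33.4% of all genes tested higher and 31.1% lower. Both counts hold Csf3, which passed the filter through LPS-MIC-1 alone and had to be higher there, so it adds nothing to them. Both comparisons use the same LPS-MIC-1 libraries. The summed level of 11 neutrophil markers in muscle was 2.06 to 3.06 FPKM in control, 1.89 to 2.24 FPKM in LPS and 14.9 to 20.3 FPKM in LPS-MIC-1, with Elane listed at 0 in all groups. Of these, S100a8, S100a9 and Ngp were highest in LPS-MIC-1, with means of 7.38, 3.81 and 3.16 FPKM there and under 0.5 FPKM in the other groups, and S100a9 was listed at 0 in 1 of the 3 LPS-MIC-1 libraries. Cxcr2 and Mmp9 were not, with means in control, LPS and LPS-MIC-1 of 1.58, 1.17 and 1.44 FPKM for Cxcr2 and of 0.334, 0.156 and 0.230 FPKM for Mmp9. Cxcr2 alone of these markers exceeded 1 FPKM without its highest group, and it was not called. The part of these markers in the Csf3 values was not tested. Replicate 3, highest in macrophage markers, had the lowest Csf3 of its group, and without it the log2 difference of Csf3 from LPS was 5.99.

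Genes that carry the signal of these receptors were taken from a list of 19 kinases, adaptors and transcription factors. Here and in the lists that follow, calls were again counted only for genes over 1 FPKM without their highest group. In cells, 14 of 19 were called lower in LPS-MIC-1 against LPS and none higher, beside 27.0% and 18.2% of all genes counted. The median log2 difference of the list was -2.34 beside -0.20 over the genes counted, and 18 of the 19 had a negative difference. Tyrobp, a membrane adaptor that pairs with myeloid receptors, had a log2 difference of -8.25 (limma adjusted p = 0.000141). Its mean was 621 FPKM in LPS, and it had 17.0, 0.689 and 0.530 FPKM in LPS-MIC-1 replicates 1, 2 and 3, so that replicate 1 stood apart as it did for Csf1r. Against control, 12 of 19 were called lower and none higher, beside 23.9% and 14.5% of all genes counted. Stat3 was above control in LPS-MIC-1 under the fold threshold, by 0.56 on the log2 scale (limma adjusted p = 7.56e-06). In muscle, 2 of 13 counted were called higher and 1 lower from LPS to LPS-MIC-1, beside 8.12% and 5.06%, with a median of 0.49 beside -0.02 over the genes counted. Stat3, the main transcription factor downstream of CSF3R, rose by 2.06 on the log2 scale (limma adjusted p = 1.75e-08), from a mean of 7.06 to 29.7 FPKM. Pik3r1, a regulatory subunit of PI3-kinase, was the other gene called higher, and Pik3cd, a catalytic subunit, was the one called lower. Gab2, a docking adaptor, had means of 0.483, 0.652 and 2.72 FPKM in control, LPS and LPS-MIC-1 and was not counted. No gene of the list was called between LPS and control in muscle.

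Inhibitors of the pathway were 8 genes, among them the SOCS proteins, which are induced by cytokine receptors and shut them off. In cells, 4 of 6 counted were called lower and 1, Socs1, higher from LPS to LPS-MIC-1, beside 27.0% and 18.2% of all genes counted. Inpp5d, a lipid phosphatase of blood cells, was lowest at -7.22 (limma adjusted p = 3.76e-05), and Dok2, an adaptor, followed at -6.37 (limma adjusted p = 0.000150). Replicate 1 was again the highest of the LPS-MIC-1 libraries, with 1.74 FPKM of Inpp5d against 0.185 and 0.0469 FPKM in the others, and 2.86 FPKM of Dok2 against 0.442 and 0.0701 FPKM. In muscle, all 4 inhibitors counted were called lower in LPS than in control, beside 0.470% of all genes counted, and their median log2 difference was -3.17 beside 0.01 over the genes counted. Socs1 fell by 5.79 (limma adjusted p = 1.84e-05) and Cish fell by 3.39 (limma adjusted p = 4.34e-07), with Socs2 and Socs3 the other two. From LPS to LPS-MIC-1 in muscle, Socs3 rose by 3.03 (limma adjusted p = 0.000142) and Socs1 by 2.24 (limma adjusted p = 0.000394), while Cish was called lower, which makes 2 of 4 higher and 1 lower beside 8.12% and 5.06% of all genes counted.

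Related ligands and receptors were 9 genes of other cytokines that act on the same cells or share subunits. In cells, 2 were counted, of which Flt3l, a growth factor of dendritic cell precursors, was called lower in LPS-MIC-1 against LPS, beside 27.0% of all genes counted. Il3ra and Il34 passed the filter only through LPS-MIC-1 and are described with no test. Il3ra, the alpha subunit that pairs with Csf2rb for IL-3, had means of 0, 0.0164 and 18.1 FPKM in control, LPS and LPS-MIC-1. Il34, the other ligand of CSF1R, had means of 0.0212, 0.228 and 17.7 FPKM. In muscle, 4 were counted, of which Il3ra was called higher in LPS-MIC-1 than in LPS by 1.47 on the log2 scale (limma adjusted p = 0.000156), and Flt3l fell by 2.61 (limma adjusted p = 0.000138), beside 8.12% higher and 5.06% lower over all genes counted. Kit, the stem cell factor receptor, was not counted and had means of 0.323, 0.123 and 5.34 FPKM in muscle of control, LPS and LPS-MIC-1.

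Transcription factors of the myeloid lineage were 11 genes. In cells, 8 of 9 counted were called lower in LPS-MIC-1 against LPS and none higher, beside 27.0% and 18.2% of all genes counted. The lowest were Spi1, which encodes PU.1 and drives Csf1r (-8.37, limma adjusted p = 0.000214), and Irf8 (-6.89, limma adjusted p = 2.28e-05). Replicate 1 stood apart here as well, with 8.60 FPKM of Spi1 against 0.394 and 0.0834 FPKM in the other LPS-MIC-1 libraries, and 1.69 FPKM of Irf8 against 0.127 and 0.161 FPKM. In muscle, 2 of 5 counted were called higher and 1 lower in the same comparison, beside 8.12% and 5.06%. Cebpb rose by 2.49 on the log2 scale (limma adjusted p = 1.36e-08) and Irf8 by 1.33 (limma adjusted p = 6.88e-05). Runx1 was not counted and had means of 0.222, 0.197 and 3.21 FPKM in control, LPS and LPS-MIC-1.

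The genes whose pattern was most like that of a member were ranked by Pearson's r of log2(FPKM + 0.1) over the 9 libraries of an experiment, as a description. These libraries share 3 groups, so r mostly follows the group means. In cells, the closest to Csf3 were Lcn2 (r = 0.998), Ccl5 (r = 0.991) and Ccdc45 (r = 0.989). Mean levels in control, LPS and LPS-MIC-1 were 1.16, 2674 and 26.5 FPKM for Lcn2, which encodes an iron-binding protein of the acute response. Csf2rb2 was closest to Tnf, at r = 0.999, and correlated with Csf2rb at r = 0.98. For Csf1r it was Myo1f, a myosin of immune cells, and for Csf1 it was Mtap1b, a microtubule protein, both at r over 0.99. Such values were common. Of 10876 other genes, 1306 had r over 0.95 with Csf1, 967 with Csf1r, 542 with Csf2rb2 and 133 with Csf3. In muscle, Csf3 was closest to Stat3 (r = 0.999), followed by Odf3l2 and Ppp1r15a. There, 954 of 9474 other genes had r over 0.95 with Csf3. Csf3 passed the filter only through LPS-MIC-1, so genes raised in that group score high. A link between Csf3 and Stat3 was not tested. Csf1 was closest to Ctdsp2 and to H2-K1, an MHC class I gene. Csf1r had r = 0.952 with Laptm5, a macrophage marker used above, and their values both rested on LPS-MIC-1 replicate 3.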

How the data were processed

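RNA-seq from 18 mouse libraries was analysed, 9 per experiment. Per the submitters' processing notes and the study's methods, reads were pseudoaligned with kallisto 0.46.11 and analysed with DESeq2 1.30.13; the notes name the build mm9. The authors deposited FPKM per gene and library. They also deposited mean normalized counts per comparison (unit: signal, counts divided by size factors), which served here only to judge depth; their fold changes and p-values were not used, nor was the muscle table of control against LPS, whose mean counts were 0 for genes with FPKM above 0. In the muscle values, 9 unnamed columns of values were left out, since their samples are not stated.

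Cells and muscle had separate fits of log2(FPKM + 0.1) in limma 3.58.1 (R 4.3.3), each with 3 group means over 9 libraries and an eBayes trend. The test took genes whose mean FPKM exceeded 1, 10877 in cells and 9475 in muscle, with Benjamini-Hochberg adjustment over all of them. Called genes had an absolute log2 difference over 1 and an adjusted p under 0.001 in cells or 0.05 in muscle. In the Results, counts of called members and list genes, and limma p-values of named genes, are given only for genes whose mean FPKM also exceeded 1 without their highest group (9535 in cells and 8937 in muscle). This choice was made after the data were examined. Shares given over all genes tested, and the counts in the section on processing, use all genes past the first filter. The fit was tested on simulated data. For a single value, exact two-sided permutation tests were used, which cannot go below p = 0.1. About how many normalized reads a value stands for was taken as FPKM times the ratio of the authors' mean count to the mean FPKM of the libraries compared. Counting error per library could not be given because raw counts were not used here.

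The members and lists were chosen with earlier results of these data known. Named genes were all members, the 2 genes of each list with the largest absolute log2 difference among those called in a comparison (genes that complete a small count are also named, and Myod1, Lyz2, Cd163 and the markers listed at 0 were named after their values were seen), and the 3 genes with the highest r to each member, of which some are named. Spi1 is listed as Sfpi1 in the files. Alternatives were pseudocounts of 1 and 0.01, no filter or one at a mean of 5 FPKM, quantile normalization or median-ratio scaling, eBayes with no trend, a replicate block, fits of only the 6 libraries compared, unadjusted p-values and leaving out each library. Some genes that this rule names are not reported here. No sequences are shown.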

Additional observations from a re-analysis of the deposited data

Results flagged for a closer look

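In 4 cases every library of a member moved one way in cells and the other way in muscle under the same contrast, and the difference between the experiments was not tested. Csf1 differed between LPS and control by 1.66 on the log2 scale in cells and by -0.67 in muscle. Csf3 differed between LPS-MIC-1 and LPS by -8.79 in cells and by 5.88 in muscle. Csf2rb differed between LPS-MIC-1 and LPS by -2.98 in cells and by 1.04 in muscle, and between LPS-MIC-1 and control by -1.67 in cells and by 0.88 in muscle. The muscle values of Csf2rb lie under 1 FPKM, and the cell groups also differ in cell type markers.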

How the results depend on the processing

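Of the comparisons of members, none changed direction past the threshold. The counts in this section are over all members past the filter, other than Csf3 in cells. With 1 added to FPKM, 1 member in place of 2 was called between LPS-MIC-1 and control in muscle. Csf1 fell to 0.98, which left Csf3, a gene described without a test in the Results. With a mean FPKM over 5, no member could be tested in muscle. Over all members past the filter, 6 and 5 were called for LPS-MIC-1 against LPS and against control in cells, and 2 and 2 in muscle. The shares of all genes tested were 49.9%, 43.3%, 15.1% and 15.5%. The member counts include Csf1 and Csf3r in cells and Csf3 in muscle. Those genes passed the filter through 1 group alone and had to be higher in that group than in the others. The counts that follow are therefore no support for those genes. Counting only genes over 1 FPKM without their highest group gave 4, 3, 1 and 1, an alternative chosen after seeing the data. Leaving out 1 library gave 6 to 6 called members for LPS-MIC-1 against LPS and 5 to 6 against control in cells. The 6 against control includes Csf2rb2, which passed without LPS-MIC-1 replicate 1, where the rest of that group was listed at 0. In muscle, 0 to 0, 2 to 2 and 2 to 2 were called for LPS against control, LPS-MIC-1 against LPS and LPS-MIC-1 against control. Without the filter, Csf2rb was also called between LPS-MIC-1 and LPS in muscle, which made 3. The replicate numbers did not pair the libraries, with correlations of same-numbered deviations between -0.08 and 0.06 in cells and between -0.05 and 0.08 in muscle, and with the replicate block the called members were 6 and 5 in cells and 0, 2 and 2 in muscle, as without it. The described log2 difference of Csf1 between LPS and control in cells moved from 1.66 to 0.55 with 1 added, 2.16 with 0.01 added and 0.82 after quantile normalization. Over all muscle genes, LPS against control gave 62 higher and 56 lower calls, against 37 and 34 with 1 added and 91 and 94 at an unadjusted p. For LPS-MIC-1 against LPS, 916 higher and 515 lower became 781 and 667 after quantile normalization, which moved the median of all genes from -0.01 to -0.12. Values under about 0.1 FPKM rest on few reads.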

Other observations

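Genes next to the ligand genes, by gene order in the assembly GRCm38.p6, were read from the same tables as a description. They were chosen by position. Psmd3, a proteasome subunit gene on 1 side of Csf3, had 113 ± 2.31 FPKM in control and 114 ± 2.98 FPKM in LPS (SD, n = 3) in the C2C12-labelled libraries, and Med24, a Mediator subunit gene on the other side, had 21.9 ± 3.64 and 22.3 ± 2.29 FPKM. Csf3 between them went from 0.501 to 2581 FPKM. In muscle, Psmd3 had 70.5 ± 1.72 FPKM in LPS and 99.2 ± 6.81 FPKM in LPS-MIC-1. Med24 went the other way there, with 13.99 ± 3.08 and 7.59 ± 3.26 FPKM. In the LPS-MIC-1 cell libraries, Psmd3 had 210 ± 16.5 FPKM and Med24 a mean of 14.5 FPKM. Ahcyl1, next to Csf1, had means of 66.4, 77.3 and 2.66 FPKM in control, LPS and LPS-MIC-1 in cells. In muscle its means were 2.71, 4.15 and 7.57 FPKM. Eps8l3, the other neighbour of Csf1, had means of at most 0.111 FPKM in both experiments. Il3, which lies next to Csf2 and encodes the cytokine that shares the beta subunits, was listed at 0 in all 9 cell libraries. P4ha2, a collagen-modifying enzyme gene on the other side of Csf2, had 3.88 ± 0.0395, 10.4 ± 0.796 and 36.0 ± 0.617 FPKM in control, LPS and LPS-MIC-1.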
